A study of Mus musculus with 6 samples.

Results

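Wnt proteins are secreted, lipid-modified ligands that carry signals between neighbouring cells, and the genes described here are those that make, export and receive them. They were chosen by symbol: every Wnt gene, every Frizzled gene (Fzd), the co-receptors Lrp5 and Lrp6, the receptor-type proteins Ror1, Ror2 and Ryk, and the secretion factors Porcn and Wls. This gave 36 of the 18193 genes with a symbol of their own on the array, namely 19 Wnt ligands, 10 Frizzled receptors, 5 co-receptors and related receptors, and 2 secretion factors. The signal was measured in Smad1 conditional knockout (CKO) mouse embryos, in which Smad1 was removed in the lung epithelium, and in wild type embryos, 3 of each. All animals were labelled as strain C57/BL6 and stage E18.5, shortly before birth, and RNA came from the left lobe of the lung. The sources used here do not name the Cre line behind the knockout. The design groups the animals into 3 pairs, each of 1 CKO and 1 wild type lung. Smad1 transmits signals of bone morphogenetic proteins, and the study's title ties it to Wif1, a secreted protein that binds Wnt ligands.

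A Wnt protein is given its lipid by Porcn, an enzyme of the endoplasmic reticulum, and is carried to the cell surface by Wls. At the receiving cell it binds a Frizzled receptor together with Lrp5 or Lrp6, which stabilises beta-catenin, or it acts through Ror1, Ror2 or Ryk on cell shape and polarity without beta-catenin. In the mouse lung, Wnt2 and Wnt2b of the mesenchyme are required for the lung to form, Wnt7b is made by the epithelium and is required for growth of the mesenchyme and vessels, and Wnt5a and Ror2 act in shaping the airways and distal lung. Fzd4 is a receptor of endothelial cells, which also receive Norrin through it.

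Each lung was read on 1 Affymetrix Mouse430_2 array, and the signal is given as log2(intensity + 1) of the brightest probe set of a gene unless stated otherwise. Differences are CKO minus wild type on that log2 scale, as the mean over pairs with the standard error (SE) of the fit or the SD over the 3 pairs. Median intensity ran from 70.6 to 77.8 on CKO arrays and from 69.96 to 71.7 on wild type arrays. The number of arrays, 3 a genotype, limits the precision. The array of CKO lung 3 stood apart, with a signal for 18S ribosomal RNA of 2887, against 243 to 297 on the other 5, and an upper quartile of 170.3, against 222.3 to 283.8. Its log2 signals were lower among bright genes and higher among dim ones. CKO lung 1 was the only one with a high signal of Xist, the RNA of the inactive X chromosome (10.95, against 6.07 to 7.70 on the others) and a low one of the Y-linked Eif2s3y (3.78, against 7.06 to 9.04), so in pair 1 sex and genotype cannot be told apart. To a lesser degree pair 3 differed in the same directions. Its CKO and wild type lungs were at 7.70 and 6.62 for Xist and at 7.06 and 8.71 for Eif2s3y, and the reason was not tested. Results are therefore given pair by pair. Smad1 itself was at 10.12, 10.62 and 9.05 in CKO lungs 1 to 3, against 10.004, 10.09 and 9.53 in wild type lungs 1 to 3, with groups that overlapped. Its difference was 0.06 on the deposited values. After cyclic loess normalization, described below, it was 0.58, with 0.42, 0.56 and 0.76 in the pairs. The lobe holds cells in which the gene was not targeted and the sources do not say which part was deleted, so the signal of Smad1 does not check the labels. The lung label was checked against its markers: all 6 epithelial markers (Nkx2-1, Foxa2, Epcam, Cdh1, Krt8, Krt18) and all 4 measured markers of alveolar type 2 cells lay above the level of sensory receptor genes described next in all wild type lungs.

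Signals in wild type lungs spanned the range of the array. Probe sets differ in how strongly they respond, so the order given here is one of signals and not of RNA amounts. As a yardstick for dim signals, 83 probe sets of 74 genes for odorant, vomeronasal and taste receptors were used, and their 95th percentile was 5.90, 5.95 and 6.26 in wild type lungs 1 to 3. Of the 36 genes, 26 lay above it in all 3 wild type lungs: 10 of 19 Wnt ligands, 9 of 10 Frizzled receptors, all 5 co-receptors and related receptors, and both secretion factors. The other 10 (Fzd9, Wnt10a, Wnt5b, Wnt10b, Wnt16, Wnt2b, Wnt8b, Wnt1, Wnt8a and Wnt3) lay above it in none. With the array median as the limit, 25 genes passed, since Wnt6 then fell short.

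The brightest signals belonged to the export and receiving side of the pathway. The 8 brightest in wild type lungs were Wls (10.69 ± 0.06, SD, n = 3), Fzd1 (10.55 ± 0.13), Ryk (10.02 ± 0.17), Fzd7 (9.86 ± 0.09), Fzd2 (9.84 ± 0.42), Wnt2 (9.75 ± 0.29), Fzd4 (9.53 ± 0.61) and Fzd6 (9.42 ± 0.11). Wnt2 was thus the brightest ligand, followed by Wnt5a (8.33 ± 0.18) and Wnt7b (8.32 ± 0.21), which did not differ beyond their spread. Neighbours from Fzd7 to Lrp6 in this order, at 9.38 to 9.86, likewise lay within the spread of the 3 lungs. Next among the ligands came Wnt7a and Wnt3a, known in the mouse for limb and early axis development, at 7.89 and 7.80. Wnt3 was the dimmest (3.73 ± 0.06), its probe set lying at percentile 0.374 of all genes in wild type lungs, so its RNA cannot be judged from it.

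**Figure D1:**
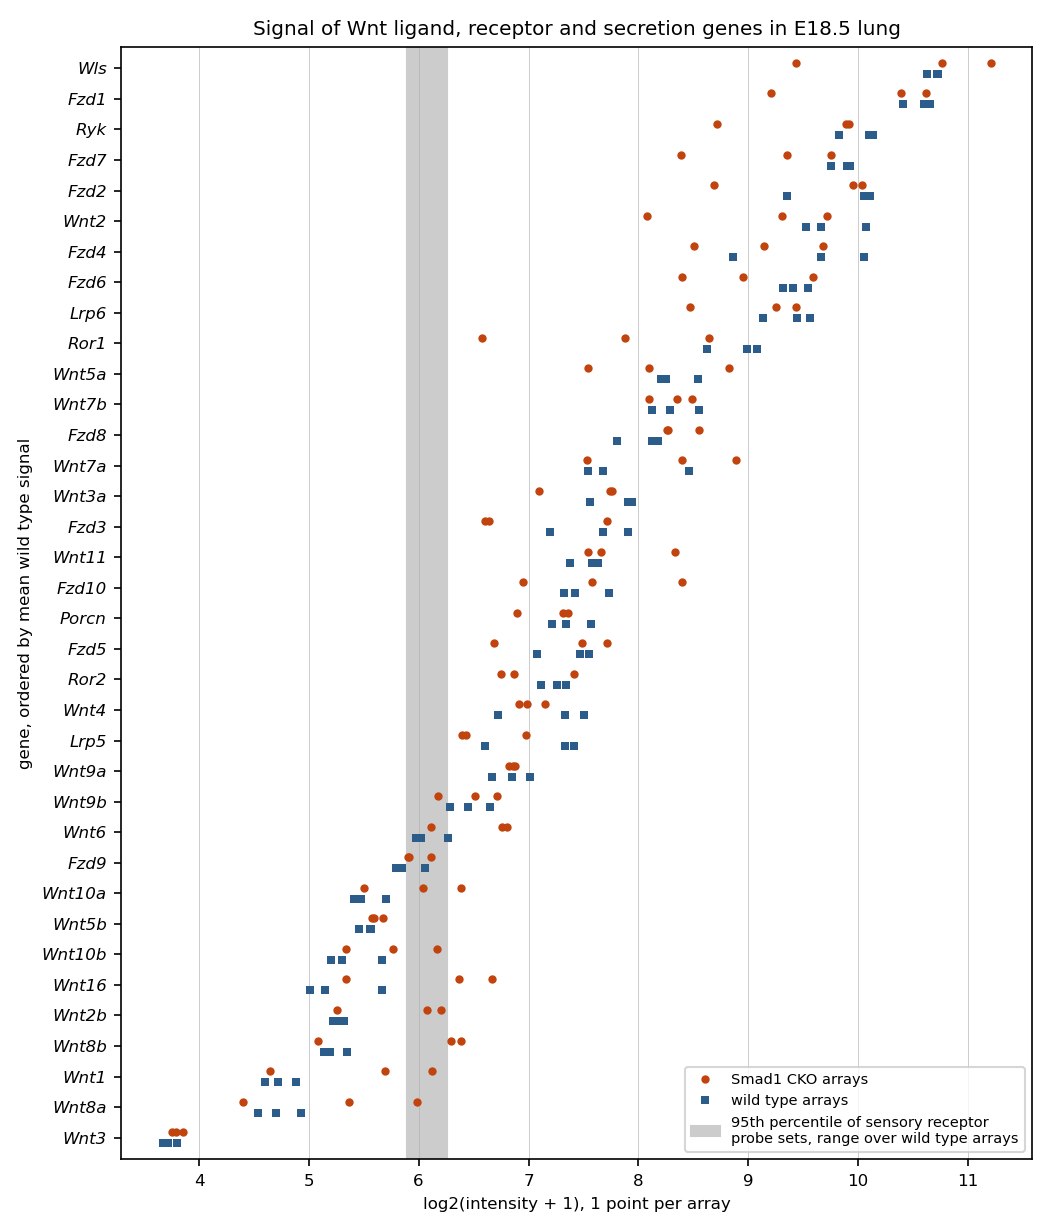
Signal of the 36 genes as log2(intensity + 1), with 1 point per array (Smad1 CKO in orange circles above wild type in blue squares), ordered by the mean of the wild type arrays. The grey band spans the 95th percentile of sensory receptor probe sets on the 3 wild type arrays (5.90 to 6.26), and 10 genes, 9 of them Wnt ligands, lie below the percentile of the same array in each wild type lung.

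The comparison of CKO with wild type lungs asks whether loss of epithelial Smad1 goes with a change in the Wnt ligands and receptors themselves, beside that of Wif1. No member passed across all probe sets: the lowest adjusted p was 0.367 (limma, paired, Benjamini-Hochberg over 45037 probe sets). Over the whole array 1 probe set passed (0.00222%), and 0% of the 18193 genes by their brightest probe set. At an unadjusted p under 0.05, 4 members were lower (Ror1, Fzd3, Wnt2 and Fzd7), which is 11.1% of them, against 9.96% of all genes. On the higher side 2 members did so (Wnt16 and Wnt1), or 5.56%, against 4.96% of all genes. Both shares are near those of all genes. Without pair 3, 3 were lower (Ror1, Fzd3 and Lrp5, 8.33% against 6.19% of all genes) and 1 was higher (Wnt16, 2.78% against 3.53%). Without the array of CKO lung 3 alone, in a fit that ignores pairs, 0 members had an unadjusted p under 0.05 in either direction, against 2.54% of all genes lower and 1.42% higher.

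Direction within pairs gave the same picture. Of the 36 members, 11 were lower in all 3 CKO lungs than in their pair mates (30.6%, against 29.3% of all genes) and 9 were higher in all 3 (25%, against 21.0%). In 0 members did every CKO array lie below every wild type array, against 6.05% of all genes. In 2 members, Fzd8 and Wnt5b, every CKO array lay above every wild type array (5.56%, against 4.25%).

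**Figure D2:**
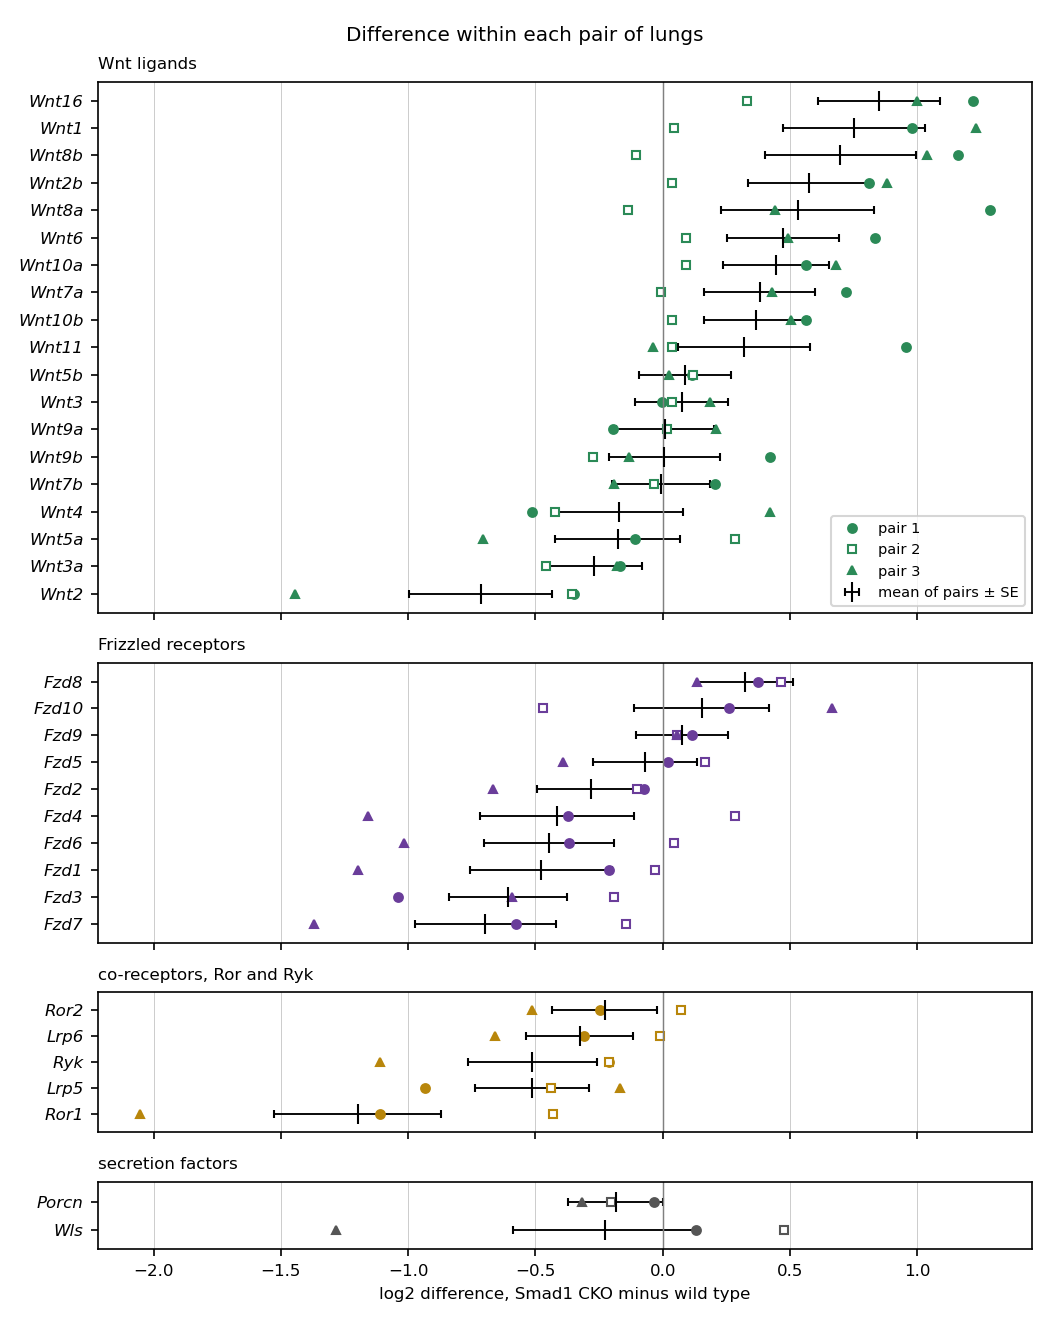
Log2 difference of each gene within the 3 pairs (circle, pair 1; open square, pair 2; triangle, pair 3) and their mean with the standard error of the fit (black), by role and ordered by the mean. Pair 2 lies near 0 for most genes, and pair 3 holds the lowest values among the bright receptors, down to -2.05 for Ror1.

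The roles differed in sign on the deposited values. The 19 ligands had a median difference of 0.32, the 10 Frizzled receptors -0.35, the 5 co-receptors and related receptors -0.51 and the 2 secretion factors -0.20, while the median of all genes was -0.095. Differences also varied with signal level, and its part in the medians of the roles was not tested. All genes were split by mean signal into dim, middle and bright groups of equal size. Bright genes had medians of -0.29, -0.028 and -1.09 in pairs 1 to 3, and the 13 bright members -0.21, -0.031 and -1.11. Dim genes had 0.25, 0.032 and 0.36, and the 10 dim members, 9 of them ligands, 0.69, 0.041 and 0.59. Over the 36 members, Spearman's rho between level and difference took the values -0.54, -0.12 and -0.82 in pairs 1 to 3, and over all genes it was -0.50, -0.13 and -0.70. These are descriptions across genes of the same arrays, which are not independent.

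After cyclic loess normalization, which removes such dependence on level between arrays, the median of all genes was 0.049 and that of the ligands 0.28, of the Frizzled receptors 0.068, of the co-receptors and related receptors -0.054 and of the secretion factors 0.18. The negative median of the Frizzled receptors on the deposited values thus turned its sign, while that of the ligands did not. Cyclic loess left 5 members lower in all 3 pairs (Ror1, Fzd3, Lrp5, Wnt2 and Fzd7, 13.9% against 17.5% of all genes) and 11 higher in all 3 (30.6% against 23.6%). At an unadjusted p under 0.05, 1 was then lower (Ror1, 2.78% against 6.25%) and 5 were higher (Fzd8, Wnt7a, Wnt11, Wnt16 and Wnt1, 13.9% against 8.82%), with a lowest adjusted p of 0.336 (limma). With cyclic loess normalization of pairs 1 and 2 alone, a choice made after seeing the data, 2 were lower (Ror1 and Lrp5, 5.56% against 4.12%) and 3 were higher (Wls, Fzd8 and Wnt16, 8.33% against 3.13%).

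**Figure D3:**
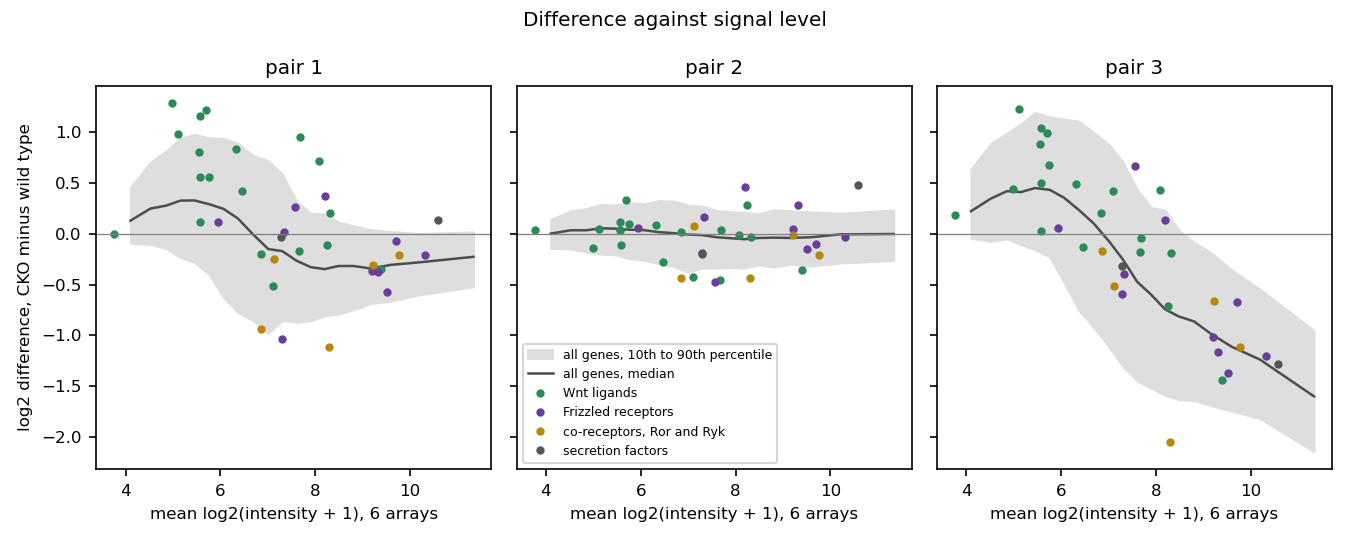
Log2 difference within each pair (y) against mean log2 signal over the 6 arrays (x), with 1 coloured point per member, the median of all genes as a line and their 10th to 90th percentile in grey, in 20 groups of genes by level. In pair 3 the median of all genes falls with level and most members lie along it, while in pair 2 both lie near 0.

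Among the ligands, Wnt2 had the lowest difference. It signals through beta-catenin from the lung mesenchyme, and its signal was 9.31, 9.72 and 8.08 in CKO lungs 1 to 3, against 9.66, 10.07 and 9.52 in wild type lungs 1 to 3. CKO lungs 1 and 3 lay below all wild type lungs, and CKO lung 2 within their range. The difference was -0.72 ± 0.63 (SD, 3 pairs), with -0.35, -0.36 and -1.44 in pairs 1 to 3 (limma, adjusted p = 0.367). It was -0.35 without pair 3 and -0.23 after cyclic loess normalization, with -0.02, -0.33 and -0.33 in the pairs. The 6 fibroblast markers (Col1a1, Col1a2, Col3a1, Pdgfra, Tcf21, Tbx4) had medians of -0.15, 0.0011 and -1.86 in the pairs. In all 3 pairs 3 of the 6 were lower, where 29.3% of all genes and 50.9% of bright genes were. The median of these markers was -0.77 on the deposited values and -0.086 after cyclic loess normalization. Their summed intensity was 8861 to 39337 in CKO lungs and 34358 to 41767 in wild type lungs, none was near 0, and their part in the value of Wnt2 was not tested. In a whole lobe, fewer cells of a type and less RNA per cell cannot be told apart.

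Wnt7b, the ligand made by the lung epithelium, showed no difference that these arrays could resolve. Its signal was 8.49, 8.09 and 8.35 in CKO lungs 1 to 3, against 8.29, 8.13 and 8.55 in wild type lungs 1 to 3, with both groups over the same range. The difference was -0.01 (SE 0.19), with a 95% interval of -0.48 to 0.47 (limma, adjusted p = 0.984) which holds changes of either sign. After cyclic loess normalization it was 0.38, with 0.53, 0.01 and 0.59 in the pairs. The 6 epithelial markers had medians of -0.07, 0.15 and -1.26 in the pairs, and their summed intensity was 3744 to 13146 in CKO lungs and 11704 to 11900 in wild type lungs. All 4 measured markers of alveolar type 2 cells were lower in all 3 pairs (summed intensity 6861 to 28293 in CKO lungs and 40174 to 49885 in wild type lungs). So were all 5 of alveolar type 1 cells (6296 to 22464 in CKO lungs and 26442 to 28067 in wild type lungs). Of all genes 29.3% were lower in all 3 pairs, and of bright genes 50.9%. On the deposited values the medians of epithelial, type 2 and type 1 markers were -0.33, -1.73 and -0.94. After cyclic loess normalization they were 0.16, -1.09 and -0.24. The part of these markers in the value of Wnt7b was not tested.

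Wnt5a, which acts largely without beta-catenin, differed in direction between pairs. Its signal was 8.10, 8.82 and 7.54 in CKO lungs 1 to 3, against 8.21, 8.54 and 8.25 in wild type lungs 1 to 3, and CKO lung 2 was the highest of the 6 and CKO lung 3 the lowest. Its difference was -0.18 (SE 0.25), with -0.11, 0.28 and -0.71 in the pairs. Wnt4, known for kidney and gonad development, was at -0.52, -0.42 and 0.42 in the pairs. Wnt3a was lower in all 3, at -0.17, -0.46 and -0.18, and its mean was -0.27 on the deposited values and 0.02 after cyclic loess normalization. Wnt9a, known in joints, and Wnt9b, which starts kidney tubule formation, had means of 0.01 and 0.01.

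Wnt7a and Wnt11 had positive means that did not come from all pairs. Wnt11, which acts in kidney and heart development, was at 8.33, 7.66 and 7.54 in CKO lungs 1 to 3, against 7.38, 7.63 and 7.58 in wild type lungs 1 to 3. CKO lung 1 alone stood above the others, and pair 1 gave 0.95, against 0.04 and -0.04 in pairs 2 and 3. Without pair 1 the mean of Wnt11, 0.32, was -0.00098. Wnt7a was at 8.40, 7.53 and 8.89 in CKO lungs 1 to 3, against 7.68, 7.54 and 8.46 in wild type lungs 1 to 3 by its brightest probe set. The groups overlapped, and the pairs gave 0.72, -0.01 and 0.43.

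The 10 genes with dim signals included the highest differences. Wnt16, a ligand known in bone and skin, was at 6.37, 5.34 and 6.66 in CKO lungs 1 to 3, against 5.15, 5.01 and 5.67 in wild type lungs 1 to 3. Both CKO lung 1 and CKO lung 3 lay above the wild type range, and CKO lung 2 within it. The difference was 0.85 ± 0.46 (limma, adjusted p = 0.367), with 1.22, 0.33 and 0.996 in the pairs, and 0.67 after cyclic loess normalization.

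Wnt1, known for the midbrain, was at 5.70, 4.65 and 6.12 in CKO lungs 1 to 3, against 4.72, 4.60 and 4.89 in wild type lungs 1 to 3. CKO lungs 1 and 3 again lay above the wild type range, and CKO lung 2 within it. Its difference was 0.75 ± 0.63 (limma, adjusted p = 0.367), with 0.98, 0.04 and 1.23 in the pairs. The dim Wnt8b, at 0.70, Wnt2b, at 0.57, Wnt8a, at 0.53, Wnt10a (known in teeth and skin), at 0.45, and Wnt10b (known in bone and fat), at 0.37, had the same spread over pairs, as did Wnt6, at 0.47, which lay just above the sensory receptor level: each was between 0.56 and 1.28 in pair 1 and between -0.14 and 0.09 in pair 2. Wnt5b, in contrast, was higher in all 3 CKO lungs by little, at 0.12, 0.12 and 0.03, with groups that did not overlap, and at -0.10 after cyclic loess normalization.

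Sensory receptor probe sets, whose genes serve sense organs, were likewise mostly higher in CKO lungs: their median difference was 0.13, 0.034 and 0.39 in pairs 1 to 3, and 78.3%, 59.0% and 91.6% of the 83 were higher in the CKO lung. Their 95th percentile was 6.17, 6.01 and 7.29 in CKO lungs 1 to 3. In CKO lung 1, 2 of the 10 dim members (Wnt16 and Wnt8b) lay above it, and in CKO lungs 2 and 3 it was 0 of 10. Their part in the values of the dim ligands was not tested.

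In the mouse genome, 4 pairs of Wnt genes lie next to each other with 0 protein-coding genes between them in the RefSeq gene order (GRCm38.p6): Wnt1 with Wnt10b, Wnt6 with Wnt10a, Wnt3a with Wnt9a, and Wnt3 with Wnt9b. Differences were 0.47 and 0.45 for Wnt6 and Wnt10a, 0.75 and 0.37 for Wnt1 and Wnt10b, and -0.27 and 0.01 for Wnt3a and Wnt9a. For Wnt3 and Wnt9b they were 0.07 and 0.01, but the probe set of Wnt3 is too dim to judge its RNA. None of these contrasts was tested.

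Of the 10 Frizzled receptors, 4 were lower in all 3 CKO lungs (Fzd1, Fzd2, Fzd3 and Fzd7), 2 were higher in all 3 (Fzd8 and Fzd9) and 4 were mixed. Among all genes 29.3% were lower and 21.0% higher in all 3 pairs. Among bright genes these shares were 50.9% and 2.18%, and among dim genes 5.69% and 41.6%. Fzd7, a receptor for beta-catenin signalling in stem and progenitor cells, was at 9.35, 9.76 and 8.38 in CKO lungs 1 to 3, against 9.93, 9.90 and 9.76 in wild type lungs 1 to 3. CKO lungs 1 and 3 lay below the wild type range, and CKO lung 2 at its lower edge. The difference was -0.70 ± 0.62 (limma, adjusted p = 0.367), with -0.58, -0.15 and -1.37 in the pairs, and -0.36 without pair 3.

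Fzd3, a receptor of planar cell polarity and axon guidance, was at 6.64, 7.71 and 6.60 in CKO lungs 1 to 3, against 7.68, 7.91 and 7.20 in wild type lungs 1 to 3. CKO lungs 1 and 3 lay below all wild type lungs and CKO lung 2 among them. The difference was -0.61 ± 0.42 (limma, adjusted p = 0.367), and it was -0.62 without pair 3.

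Fzd8 had the highest difference of the Frizzled receptors. Its signal was 8.55, 8.27 and 8.26 in CKO lungs 1 to 3, against 8.18, 7.81 and 8.12 in wild type lungs 1 to 3, so the groups did not overlap. The difference was 0.32 ± 0.17 on the deposited values (limma, adjusted p = 0.384), with 0.37, 0.46 and 0.14 in the pairs. After cyclic loess normalization it was 0.70, with 0.70, 0.51 and 0.88 as pair values (limma, adjusted p = 0.336). Its second, dimmer probe set was at -0.32, 0.40 and -0.30 in the pairs.

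The bright receptors Fzd1, Fzd2, Fzd4 and Fzd6, the last known for planar polarity in skin, shared a low value in CKO lung 3. Fzd1 was at 10.39, 10.62 and 9.21 in CKO lungs 1 to 3, against 10.60, 10.65 and 10.41 in wild type lungs 1 to 3. Fzd2 was at 10.04, 9.96 and 8.69 in CKO lungs 1 to 3, against 10.11, 10.06 and 9.35 in wild type lungs 1 to 3. Fzd6 was at 8.95, 9.59 and 8.39 in CKO lungs 1 to 3, against 9.32, 9.54 and 9.41 in wild type lungs 1 to 3. In these 3 genes CKO lung 3 was the lowest of the 6, and the groups overlapped. Fzd4 was at 9.68, 9.14 and 8.51 in CKO lungs 1 to 3, against 10.05, 8.86 and 9.66 in wild type lungs 1 to 3. CKO lung 3 was again the lowest, and wild type lung 2 the lowest of its group. The dimmer probe sets of Fzd4 were both lower in all 3 pairs. The brighter of them was at -0.41, -0.15 and -0.95 in the pairs, and the dimmest at -0.65, -0.08 and -1.08. In pair 3 Fzd1, Fzd2, Fzd4 and Fzd6 were at -1.20, -0.67, -1.16 and -1.02, and their means over pairs were -0.48, -0.28, -0.42 and -0.45. After cyclic loess normalization these means were 0.07, 0.23, 0.07 and 0.03. All 5 endothelial markers (Pecam1, Cdh5, Kdr, Tek, Tie1) were lower in all 3 pairs, where 29.3% of all genes and 50.9% of bright genes were. Their median was -0.96 on the deposited values and -0.42 after cyclic loess normalization. Their summed intensity was 1837 to 5830 in CKO lungs and 5629 to 8833 in wild type lungs. None was near 0, and their part in the value of Fzd4 was not tested. Fzd5, a receptor with a known part in the eye and the gut, was at 7.49, 7.72 and 6.68 in CKO lungs 1 to 3, against 7.47, 7.55 and 7.08 in wild type lungs 1 to 3, and its groups overlapped. Fzd5 (-0.07), Fzd9 (0.07) and Fzd10 (0.15) had small means, and Fzd10 was at 0.26, -0.47 and 0.67 in the pairs.

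Ror1, a receptor tyrosine kinase-like protein that binds Wnt5a, had the largest difference of the 36 genes. Its brightest probe set was at 7.87, 8.64 and 6.57 in CKO lungs 1 to 3, against 8.99, 9.08 and 8.62 in wild type lungs 1 to 3. CKO lungs 1 and 3 lay far below the wild type range and CKO lung 2 just inside it. The difference was -1.20 ± 0.81 (a 2.3-fold lower intensity; limma, adjusted p = 0.367), with -1.11, -0.43 and -2.05 in the pairs. It was -0.77 without pair 3 (limma, adjusted p = 0.534) and -0.81 after cyclic loess normalization (limma, adjusted p = 0.336).

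The 3 probe sets of Ror1 did not agree. The dimmest was at -0.75, 0.02 and -1.004 in the pairs, with a mean of -0.58. The remaining one was at 7.82, 6.30 and 7.27 in CKO lungs 1 to 3, against 6.62, 6.52 and 6.45 in wild type lungs 1 to 3, with a mean difference of 0.60 and the opposite sign to the brightest in pairs 1 and 3. All 3 lay above the sensory receptor level in wild type lungs, and the sources do not say which transcripts each one reads.

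Lrp5, a Wnt co-receptor with a known part in bone and retinal vessels, was at 6.39, 6.97 and 6.43 in CKO lungs 1 to 3, against 7.33, 7.41 and 6.60 in wild type lungs 1 to 3. Only wild type lung 3 overlapped with the CKO lungs. The difference was -0.51 ± 0.39 (limma, adjusted p = 0.367), and it was smallest in pair 3 (-0.93, -0.44 and -0.17 in pairs 1 to 3). Without pair 3 it was -0.69 (limma, adjusted p = 0.544). Lrp6, the related co-receptor with the brighter signal, was at -0.31, -0.01 and -0.66 in the pairs. Its mean was -0.33 on the deposited values and 0.15 after cyclic loess normalization.

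Ryk, a Wnt receptor without kinase activity, was at 9.89, 9.92 and 8.72 in CKO lungs 1 to 3, against 10.10, 10.13 and 9.83 in wild type lungs 1 to 3. Its difference of -0.51 took -1.11 from pair 3 and became 0.0038 after cyclic loess normalization. Ror2, the relative of Ror1 that also binds Wnt5a, was at -0.25, 0.07 and -0.51 in the pairs, with a mean of -0.23 (SE 0.21).

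Of the secretion factors, Wls differed in direction between pairs and Porcn was lower in all 3. Wls was at 10.76, 11.21 and 9.43 in CKO lungs 1 to 3, against 10.63, 10.73 and 10.72 in wild type lungs 1 to 3, so CKO lung 2 was the highest of the 6 and CKO lung 3 the lowest. Its difference was -0.23 (SE 0.36) with all pairs and 0.30 without pair 3, and after cyclic loess normalization it was positive in all 3 pairs (0.41, 0.49 and 0.12, mean 0.34, limma, adjusted p = 0.373). Porcn, an X-linked gene, was at -0.03, -0.20 and -0.32 in the pairs on the deposited values. After cyclic loess normalization it was at 0.20, -0.17 and 0.05. In pair 1 the CKO lung had the high Xist signal, and the part of sex in these values was not tested.

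**Figure D4:**
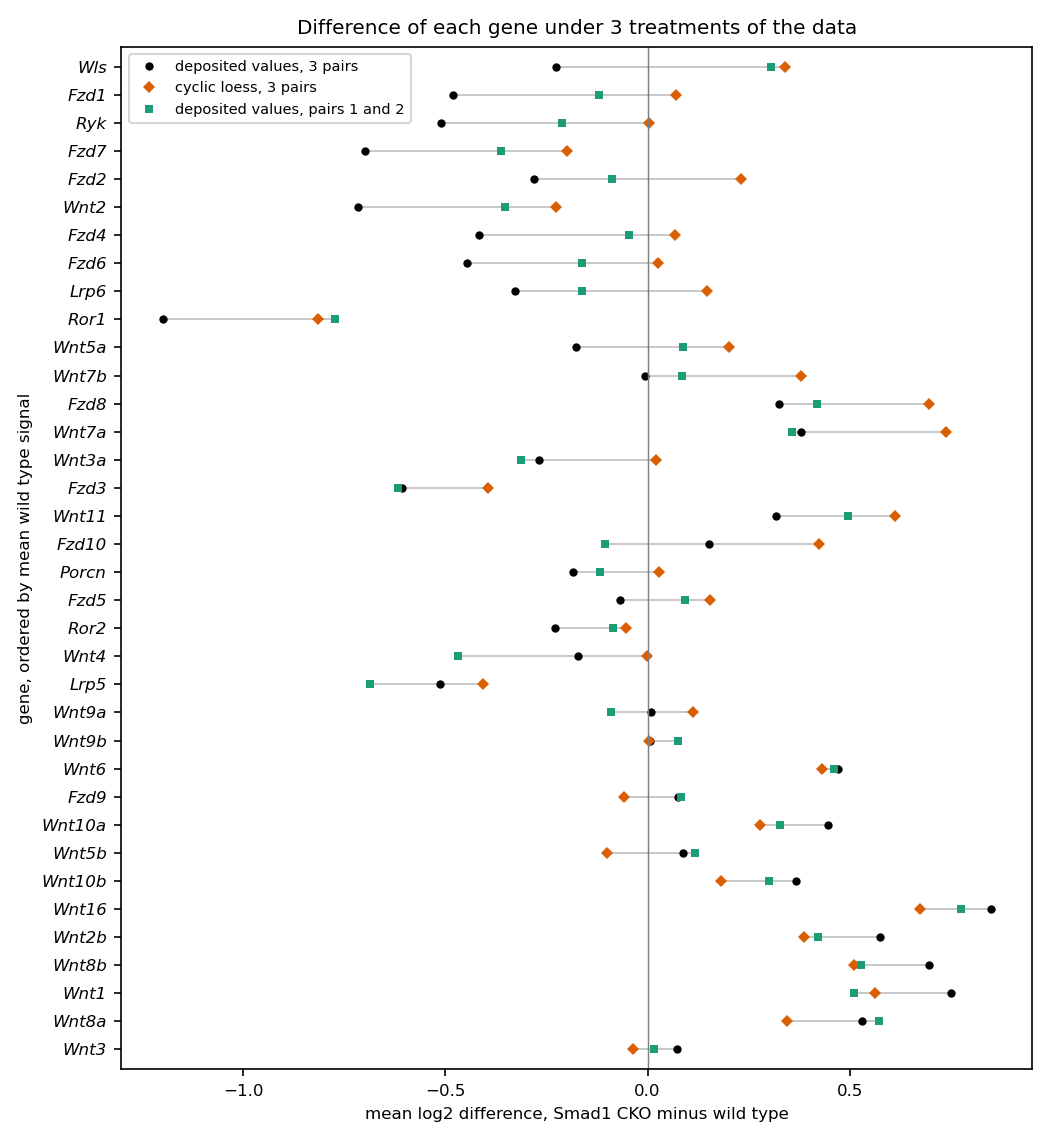
Mean log2 difference (CKO minus wild type) of each gene from the deposited values of 3 pairs (black circles), after cyclic loess normalization of 3 pairs (orange diamonds) and from the deposited values of pairs 1 and 2 (green squares), ordered by wild type signal. Bright receptors at the top move from below 0 towards or past 0, while Ror1, Fzd3 and Lrp5 stay below 0 and Fzd8 and Wnt16 above it in all 3.

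The 36 genes were read by 74 probe sets, and 23 genes had more than 1. In 11 of these 23 the probe sets differed in the sign of their mean difference, and in 4 of the 11 (Fzd1, Fzd7, Ror1 and Wnt7a) this held among probe sets above the sensory receptor level in all wild type lungs. The second probe set of Fzd7 was at 0.03, 0.12 and 0.42 in the pairs, against -0.58, -0.15 and -1.37 for the brightest. That of Fzd1 was at 0.14, -0.16 and 0.27, and that of Wnt7a at -0.26, -0.71 and -0.04, where the brightest gave 0.72, -0.01 and 0.43. In Fzd3 the 5 dimmer probe sets had means between -0.11 and 0.45, and none of them lay above the sensory receptor level in all 3 wild type lungs. In Fzd2 the 3 probe sets lay together, between -0.28 and -0.26. With all probe sets of a gene averaged, Ror1 was at -0.39, Fzd7 at -0.25, Fzd3 at 0.0014 and Fzd8 at 0.13.

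**Figure D5:**
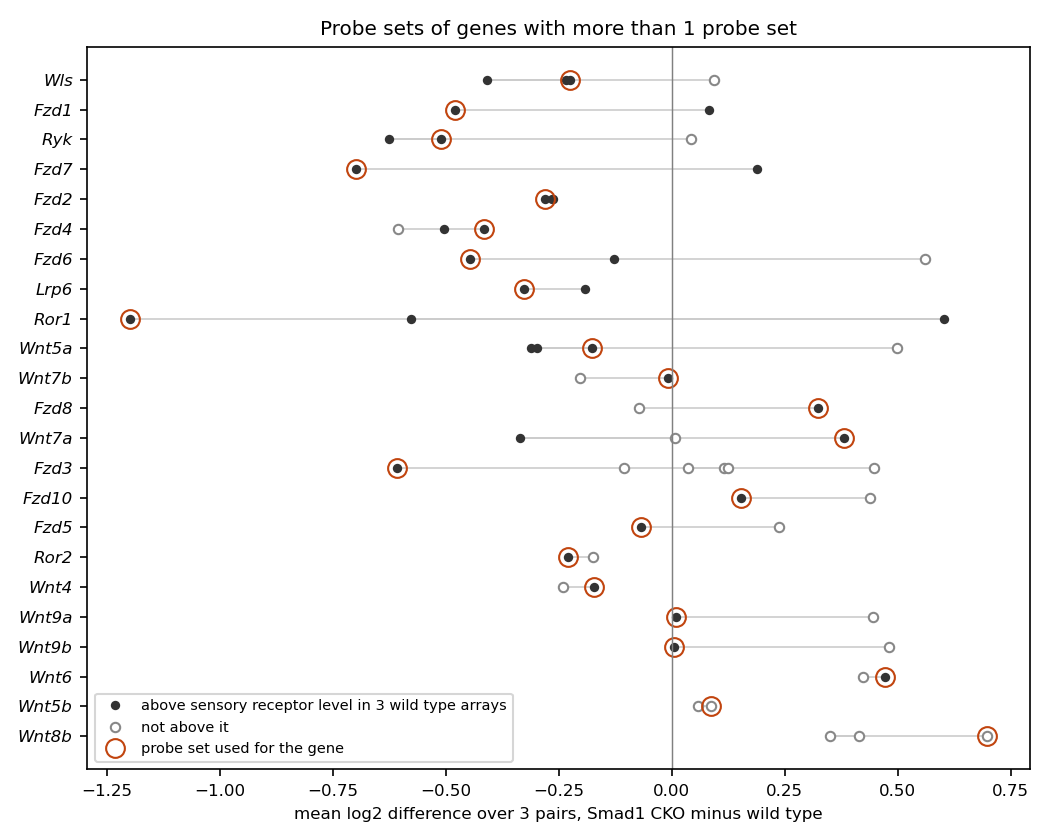
Mean log2 difference over 3 pairs (CKO minus wild type) for every probe set of the 23 genes with more than 1, filled where the probe set lies above the sensory receptor level in all 3 wild type lungs and open where it does not, with the probe set used for the gene ringed. The filled points of Ror1 span -1.20 to 0.60, while those of Fzd2 fall together.

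The promoters of members with an unadjusted p under 0.05 are shown because they stand at both ends of the range. Windows from 250 bases before to 50 after the start of a gene came from RefSeq (GRCm38.p6) and matched 25 of the 36 genes, with 28 windows. Not matched were Fzd2, Fzd3, Fzd6, Fzd8, Lrp5, Lrp6, Porcn, Wnt5a, Wnt7b, Wnt8a and Wnt10a. Of the genes that were lower, Ror1 is shown from chr4:100095541-100095840 (plus strand), Wnt2 from chr6:18030396-18030695 (minus strand) and Fzd7 from chr1:59481897-59482196 (plus strand). Of those that were higher, Wnt16 is shown from chr6:22287977-22288276 and Wnt1 from chr15:98789607-98789906 (both plus strand). All run 5′ to 3′ as the RefSeq windows are given, and capitals mark matches to the motifs named next.
Ror1: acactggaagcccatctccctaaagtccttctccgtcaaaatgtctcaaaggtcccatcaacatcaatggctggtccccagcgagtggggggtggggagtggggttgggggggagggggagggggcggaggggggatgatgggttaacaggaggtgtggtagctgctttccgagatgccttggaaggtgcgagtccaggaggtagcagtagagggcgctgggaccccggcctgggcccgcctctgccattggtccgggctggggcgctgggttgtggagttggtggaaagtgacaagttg
Wnt2: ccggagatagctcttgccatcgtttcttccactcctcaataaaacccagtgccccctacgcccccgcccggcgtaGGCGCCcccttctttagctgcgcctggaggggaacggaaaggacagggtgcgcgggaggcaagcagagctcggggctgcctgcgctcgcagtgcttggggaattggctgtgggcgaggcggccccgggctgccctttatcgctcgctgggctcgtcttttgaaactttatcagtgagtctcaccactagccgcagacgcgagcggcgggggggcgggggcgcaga
Fzd7: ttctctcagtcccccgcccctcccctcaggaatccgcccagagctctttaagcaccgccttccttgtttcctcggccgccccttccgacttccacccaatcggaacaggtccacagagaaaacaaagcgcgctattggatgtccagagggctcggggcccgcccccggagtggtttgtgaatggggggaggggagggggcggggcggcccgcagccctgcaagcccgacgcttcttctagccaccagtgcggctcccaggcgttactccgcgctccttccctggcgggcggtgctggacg
Wnt16: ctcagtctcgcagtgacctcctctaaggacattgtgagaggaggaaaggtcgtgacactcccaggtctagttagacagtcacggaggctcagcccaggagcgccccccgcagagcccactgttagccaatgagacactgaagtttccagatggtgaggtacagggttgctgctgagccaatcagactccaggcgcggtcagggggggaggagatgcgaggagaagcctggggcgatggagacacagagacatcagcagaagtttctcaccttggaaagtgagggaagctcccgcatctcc
Wnt1: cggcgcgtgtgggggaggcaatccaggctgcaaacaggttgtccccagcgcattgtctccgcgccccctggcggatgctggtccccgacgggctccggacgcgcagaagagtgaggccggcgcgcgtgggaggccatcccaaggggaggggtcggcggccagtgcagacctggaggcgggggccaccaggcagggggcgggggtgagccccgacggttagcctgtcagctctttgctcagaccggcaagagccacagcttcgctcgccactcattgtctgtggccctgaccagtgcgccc

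Each window was searched on both strands for GGCGCC, a GC-rich element bound by Smad1, for GTCTAGAC, the palindromic Smad element, for CTTTGAT, a form of the TCF/LEF element through which beta-catenin acts, and for AGGTGTGA, a T-box element. None of the 4 motifs is contained in another. Among the 5 windows shown, only that of Wnt2 held a match, a GGCGCC that starts at base 76. GGCGCC was in 11 of the 28 member windows (39.3%) and in 11.9% of all 32851 windows. Member windows were richer in G and C, with a median of 71% against 52.7% in all windows, and a median of 30 CpG against 7. CTTTGAT was in 2 member windows, of Wnt11 and Wnt5b (7.14%, against 3.73% of all windows). GTCTAGAC (0.213% of all windows) and AGGTGTGA (1.28%) were in 0. A match is only a run of letters in this window.

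The rest of the pathway was read from lists of known components, with the same fit. No gene of these lists passed across all probe sets (lowest adjusted p = 0.367, limma). Wif1 was at 5.26, 6.02 and 4.84 in CKO lungs 1 to 3, against 6.81, 7.72 and 6.15 in wild type lungs 1 to 3, with -1.55, -1.70 and -1.31 in the pairs and a difference of -1.52 ± 0.20 (limma, adjusted p = 0.367), and its groups did not overlap. It was larger in size than any difference among the 36 members, and larger in pair 2 than in pairs 1 and 3. The signal of Wif1 lay above the sensory receptor level in 2 of 3 wild type lungs and in 1 of 3 CKO lungs. Of the 18 measured Wnt antagonists, 3 had an unadjusted p under 0.05 and were lower, and 1 was higher, where 9.96% of all genes were lower and 4.96% higher at that threshold. The list median was 0.29, and 0.19 after cyclic loess normalization. Beside Wif1, the genes at that threshold were Apcdd1 (-1.22 ± 0.38), which binds Wnt and Lrp proteins, Notum (-0.84 ± 0.23), which removes the lipid from Wnt, and on the higher side the dim Sost (0.98 ± 0.98).

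Of the 14 measured genes that respond to beta-catenin, 6 had an unadjusted p under 0.05, all lower, where 9.96% of all genes were lower at that threshold. In all 3 pairs 8 of the 14 were lower, where 29.3% of all genes and 50.9% of bright genes were. The list median was -0.34, against -0.095 over all genes and -0.48 over bright genes, and 13 of the 14 lay above the sensory receptor level in all wild type lungs. After cyclic loess normalization the list median was -0.12, against 0.049 over all genes. The part of signal level in these counts was not tested. Axin2, the feedback inhibitor of the pathway, was at -0.40, -0.46 and -1.02, and Ccn4, a secreted matrix-associated protein, at -0.60, -0.44 and -0.69. Apcdd1 and Notum, given above, and Lef1, given below, belong to this list too and are counted in both places.

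In the R-spondin branch, which sets how long Frizzled receptors stay on the cell surface, 1 of 9 genes was lower and 1 higher at an unadjusted p under 0.05, with the same shares of all genes as background. Rspo1, a secreted enhancer, was at -0.94 ± 0.58, and Rnf43, a ubiquitin ligase that removes Frizzled receptors, at 0.50 ± 0.13 with 0.43, 0.65 and 0.43 in the pairs. Rspo2, another enhancer, was at 0.06, 1.65 and 0.41. Of the 4 genes that act with Fzd4 or with Wnt7 proteins at vessels, 3 were lower in all 3 pairs, where 29.3% of all genes and 50.9% of bright genes were. They were Tspan12, a partner of Fzd4, at -0.93 ± 0.53, Adgra2 at -0.92 ± 0.60 and Reck at -0.76 ± 0.74. The list median was -0.84, and it was -0.36 after cyclic loess normalization and -0.47 without pair 3. The endothelial markers given above lay lower with these genes, and the part of the markers was not tested.

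Of the 30 measured genes that carry the signal to beta-catenin and the nucleus, 3 were lower and 0 higher at an unadjusted p under 0.05, a share near the 9.96% of all genes that were lower. The list median was -0.36, and 0.08 after cyclic loess normalization. The 3 genes were Csnk1g1 (-0.67) and Csnk1g3 (-0.72), kinases that act on Lrp6, and the transcription factor Lef1 (-0.51 ± 0.14). Of the 18 measured planar polarity genes, 4 were lower and 2 higher at that threshold, where 9.96% of all genes were lower and 4.96% higher. The list median was -0.42, and 0.04 after cyclic loess normalization. Prickle1 was at -1.16 ± 0.41 and Daam1 at -0.87 ± 0.59, while Daam2 was at 0.72 ± 0.17 with 0.63, 0.92 and 0.61 in the pairs and Celsr3 at 0.76 ± 0.56. Of the 11 genes of Wnt trafficking and glypicans, 1 was lower, near the share of all genes, namely Tmed5, which moves cargo from the endoplasmic reticulum (-0.72 ± 0.48).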

How the data were processed

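The deposited table holds intensity on a linear scale for 6 arrays. Per the submitters' processing notes the authors used RMA, which corrects background, normalizes arrays and summarises probes. Upper quartiles of the deposited arrays still ran from 170.3 (CKO lung 3) to 283.8 (wild type lung 2), so their values do not share 1 distribution. Software and settings are not named in the sources. Values were turned into log2(intensity + 1), so fold changes of dim probe sets are understated. After 64 control probe sets were left out, 45037 were tested, of which 34945 had 1 gene symbol in the platform annotation, 932 several and 9160 none. For each of 18193 genes the brightest probe set on average was used. Genotype was tested with limma 3.58.1 (R 4.3.3; lmFit and eBayes, two-sided) with pair as a blocking term and p-values adjusted by Benjamini-Hochberg at 0.05 over all probe sets, and the fit was tested on simulated data. Those data held no array that stood apart and no dependence of difference on level, so they do not check p-values under either. Pairing rests on the design text and on the shared first letter of array names, and deviations from group means correlated at 0.258, 0.604 and 0.597 within pairs and at most at 0.215 between arrays of different pairs. No label says that the 3 lungs of a genotype came from separate litters, so p-values measure the spread between these samples, and exact permutation cannot go below 0.1, or 0.25 within pairs. Any 2 arrays differed by at least 0.227 (root mean square, log2). The genes and lists were chosen with earlier results of these data known. Every member may be named. By rule, per-array values are given for the 8 brightest, for those with an unadjusted p under 0.05 or a 1.5-fold difference in 1 direction in all pairs, and for those whose probe sets disagree, beside Wif1, Smad1 and up to 4 genes of each list by smallest p. Per-array values of Wnt7b, Wnt11 and Lrp5 were added after their values were seen. Alternatives changed normalization, pseudocount, filter, probe set, variance model, pairing and the samples used. Figures were drawn with Matplotlib 3.10.9.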

Additional observations from a re-analysis of the deposited data

How the results depend on the processing

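With 13 alternatives and 1 added after seeing the data (cyclic loess on pairs 1 and 2), 0 members passed the adjusted threshold except with array weights, where 21 did. That fit called 23234 of 45037 probe sets and 55 genes of the pathway lists. An intensity trend called 1 list gene. Members lower at an unadjusted p under 0.05, 4 in the reported fit, numbered 1 with no replicate block (the pairs ignored), 1 after cyclic loess, 2 after quantile normalization, with a pseudocount of 16, with an intensity trend, with all probe sets averaged or with the added alternative, and 10 with array weights. Members higher, 2 in the reported fit, numbered 0 with no replicate block, 5 after cyclic loess or with a trend, 1 with a pseudocount of 16 or without the dimmest probe sets, 12 with array weights and 4 with all probe sets averaged. Leaving out a pair or CKO lung 3 gave 0 to 5 lower and 0 to 5 higher, and 0 called. Without the pair block the differences were the same and no call was lost, since none was made.

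The Frizzled median, -0.35, was 0.068 after cyclic loess, -0.015 after quantile normalization, -0.0018 with all probe sets averaged and 0.028 with the added alternative, and ran from -0.53 to -0.081 with a pair or CKO lung 3 left out. The median of co-receptors and related receptors, -0.51, was -0.054, -0.15 and -0.043 under cyclic loess, quantile and the added alternative, and ran from -0.55 to -0.12 with samples left out. Ligands ran from 0.11 to 0.46 and secretion factors from -0.38 to 0.13.

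Of the 20 members that lay on 1 side of 0 in each pair, 11 kept their sign in each alternative that gave a value. After cyclic loess the others became 0.070 (Fzd1), 0.0038 (Ryk), 0.23 (Fzd2), 0.15 (Lrp6), 0.022 (Wnt3a), 0.028 (Porcn), -0.059 (Fzd9) and -0.10 (Wnt5b). After quantile normalization 5 turned, to 0.13 (Fzd2), 0.075 (Lrp6), 0.055 (Wnt3a), -0.032 (Fzd9) and -0.062 (Wnt5b). With the added alternative they were 0.031 (Fzd1), 0.081 (Fzd2), 0.022 (Lrp6), 0.019 (Porcn) and -0.0019 (Fzd9). Fzd2 was 0.16 without CKO lung 3, and Fzd3 was 0.0014 with all probe sets averaged. The cause was not tested. Wnt1, Wnt8a and Wnt3 had no value without the dimmest probe sets.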
